A study of Homo sapiens with 12 samples.

Results

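The genes described here are the kinesin motors that carry a KIF symbol. All genes on the array annotation named KIF with a number and at most 1 further letter were taken, with antisense transcripts left out and the brightest transcript cluster (the array's unit of measurement for a transcript) kept for each gene, which gave 39 of the 14884 genes tested. They were divided by their best known role into 13 mitotic, 13 transport and 13 other kinesins, with earlier results of these data known. KIF28P was not analysed here. The arrays came from MDA-MB-231 and HCC70, established human breast cancer cell lines of the triple-negative kind. Each line was treated for 72 hours with 500 nM JQ1, a small molecule that blocks the bromodomains of the BET proteins, or with its vehicle, DMSO at 0.1%. Each of the 4 groups had 3 arrays. No label states whether replicates were grown as separate cultures, so p-values measure the spread between these samples, which may be technical. Each line is a single cancer cell line and stands for no other tumour.

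Kinesins are motor proteins that hydrolyse ATP to walk along microtubules or to take them apart at their ends. The mitotic kinesins build the bipolar spindle, move and align chromosomes and complete cytokinesis, and in dividing cells the transcripts of most of them rise towards mitosis and fall afterwards. The transport kinesins carry vesicles, mitochondria, endosomes and ciliary cargo in cells whether or not they divide. In whole-culture RNA, fewer cells in mitosis and less RNA per cell cannot be told apart.

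The promoters of the mitotic kinesins are shown first because 12 of these 13 genes were lower under JQ1 in MDA-MB-231. Many late cell cycle genes carry a CHR (cell cycle genes homology region) close to the start of transcription, through which MuvB complexes act, and a CCAAT box, which the factor NF-Y binds. RefSeq promoter windows of 300 bases (250 before and 50 after an annotated start, GRCh38.p14) were matched by symbol for 33 of the 39 kinesins. They were searched on both strands for the canonical CHR, TTTGAA, for its variants TTCGAA and TTTAAA, and for CCAAT, each on its own and with overlaps allowed. TTTGAA was found in 9 of 13 mitotic kinesins, in 1 of 11 transport kinesins (KIF5B) and in 0 of 9 other kinesins, against 18.2% of the 27305 genes that have a window (15.2% of windows). TTCGAA was found in KIF22 and KIF24, against 1.82% of genes, and TTTAAA in KIF2C, KIF14, KIF16B, KIF20A and KIF23, against 14.5% of genes. At least 1 of the 3 forms was present in 12 of 13 mitotic kinesins, KIF2B being the exception, in 2 of 11 transport kinesins and in 1 of 9 others, against 29.0% of genes. CCAAT was found in 10 mitotic, 4 transport and 3 other kinesins, against 39.7% of genes. After these positions had been seen, pairs were counted in which CCAAT began 20 to 40 bases ahead of a CHR form. Such a pair was present in 8 mitotic kinesins, at spacings of 23 to 39 bases, in 0 transport and 0 other kinesins, and in 1.54% of all genes. Both KIF4A and its near-copy KIF4B are among the 8, each with a spacing of 24 bases, and whether their matches are independent was not tested. A match describes letters and is not evidence of binding. The windows below, written 5′ to 3′ on the gene's strand, show CHR forms and CCAAT boxes of either strand in capitals. KIF14 had the largest fall of the mitotic kinesins in both lines, and KIF23 had the largest difference between the lines. KIF11 and KIF18A share a TTTGAA and a CCAAT, and KIF11 was called lower in HCC70 while KIF18A was not called. KIF24 was a non-mitotic kinesin that fell in both lines. KIF3A, which rose in both, holds none of the 4 motifs, but KIF1B, which also rose in both, holds CCAAT. Whether motifs go with the direction of the JQ1 change was not tested.
KIF14, chr1:200620702-200621001, minus strand: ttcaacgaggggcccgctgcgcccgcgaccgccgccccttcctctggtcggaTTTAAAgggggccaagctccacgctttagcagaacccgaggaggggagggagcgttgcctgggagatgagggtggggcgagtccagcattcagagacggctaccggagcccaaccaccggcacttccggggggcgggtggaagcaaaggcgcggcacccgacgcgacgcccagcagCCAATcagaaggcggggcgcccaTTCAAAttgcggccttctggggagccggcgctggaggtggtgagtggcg
KIF23, chr15:69414099-69414398, plus strand: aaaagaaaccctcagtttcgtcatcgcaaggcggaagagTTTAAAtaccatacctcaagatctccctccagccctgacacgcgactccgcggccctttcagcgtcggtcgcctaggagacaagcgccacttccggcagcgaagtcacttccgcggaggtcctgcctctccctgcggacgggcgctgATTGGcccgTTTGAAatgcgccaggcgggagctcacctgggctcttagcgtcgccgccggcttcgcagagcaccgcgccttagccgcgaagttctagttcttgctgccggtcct
KIF11, chr10:92592880-92593179, plus strand: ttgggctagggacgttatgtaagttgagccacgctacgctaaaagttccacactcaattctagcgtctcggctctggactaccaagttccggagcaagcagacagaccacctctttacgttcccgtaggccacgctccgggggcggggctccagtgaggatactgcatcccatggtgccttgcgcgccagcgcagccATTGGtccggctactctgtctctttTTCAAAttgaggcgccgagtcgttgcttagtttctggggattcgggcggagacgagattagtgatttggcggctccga
KIF18A, chr11:28108107-28108406, minus strand: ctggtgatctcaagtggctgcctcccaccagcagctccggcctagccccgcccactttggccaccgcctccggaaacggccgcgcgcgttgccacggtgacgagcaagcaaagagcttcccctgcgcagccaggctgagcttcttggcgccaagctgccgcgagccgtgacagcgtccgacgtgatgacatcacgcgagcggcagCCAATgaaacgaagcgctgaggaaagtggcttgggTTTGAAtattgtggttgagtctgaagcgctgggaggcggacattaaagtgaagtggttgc
KIF24, chr9:34329219-34329518, minus strand: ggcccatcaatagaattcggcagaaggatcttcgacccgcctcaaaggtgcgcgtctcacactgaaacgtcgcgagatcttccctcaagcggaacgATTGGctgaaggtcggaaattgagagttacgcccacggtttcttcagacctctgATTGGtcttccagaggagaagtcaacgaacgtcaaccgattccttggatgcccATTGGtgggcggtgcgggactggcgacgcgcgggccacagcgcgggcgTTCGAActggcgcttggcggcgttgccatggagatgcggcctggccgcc
KIF3A, chr5:132737497-132737796, minus strand: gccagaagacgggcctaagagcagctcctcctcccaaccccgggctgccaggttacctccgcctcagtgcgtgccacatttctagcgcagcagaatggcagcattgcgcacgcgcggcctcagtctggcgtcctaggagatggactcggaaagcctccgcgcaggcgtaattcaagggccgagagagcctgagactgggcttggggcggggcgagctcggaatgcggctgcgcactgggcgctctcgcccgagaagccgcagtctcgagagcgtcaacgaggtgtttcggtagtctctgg

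**Figure D1:**
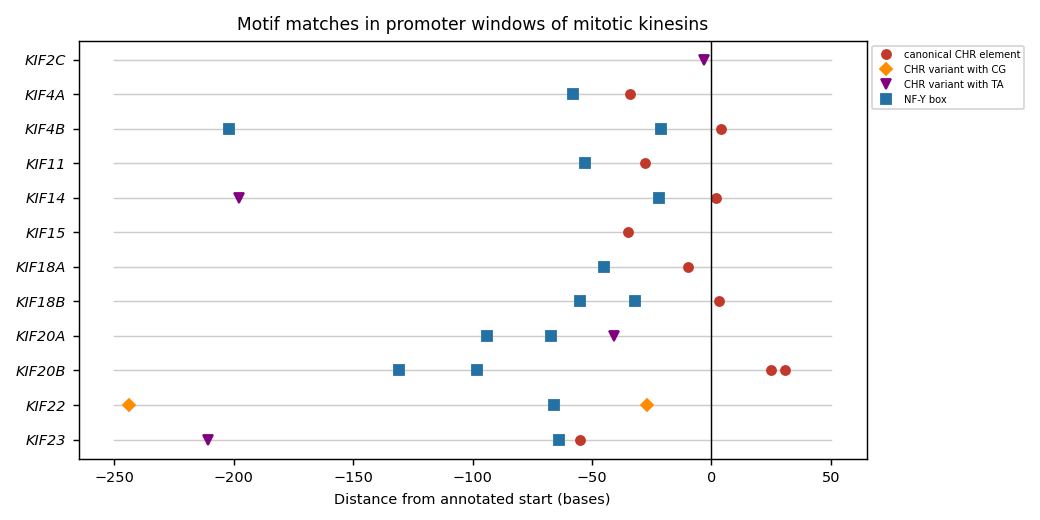
Motif matches in the RefSeq promoter windows of the 12 mitotic kinesins that hold any, by distance in bases from the annotated start (vertical line). Circles are the canonical CHR, diamonds and triangles its variants and squares the NF-Y box, and in 8 genes an NF-Y box begins 20 to 40 bases ahead of a CHR form.

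Values are log2 signals, and no gene's level is set against another's. Array medians lay between 6.16 and 6.26. Replicate 3 of both MDA-MB-231 groups and of JQ1-treated HCC70, called the 3 narrow arrays below, had lower quartiles of 4.84 to 4.87, above those of the other 9 arrays (4.73 to 4.83). The break was slight, with 4.836 for MDA-MB-231 vehicle replicate 3 against 4.833 for HCC70 vehicle replicate 1. Their upper quartiles, 7.515 to 7.634, did not set them apart, since MDA-MB-231 JQ1 replicate 2 had 7.599. Arrays within a group correlated at 0.989 to 0.995 over all genes, and the lower quartile of genes, below which a level is called dim, was 4.77 to 4.81 in the 4 groups. In vehicle 5 of 7 epithelial markers were higher in HCC70 and 1, KRT18, was lower (log2 difference -0.28, limma adjusted p = 0.0233). KRT8 differed by -0.25, which did not pass. All 4 measured mesenchymal markers (VIM, ZEB1, FN1 and AXL) were higher in MDA-MB-231. Of all genes 23.8% were higher and 23.2% lower in HCC70 vehicle. Of the receptor genes whose low level defines triple-negative disease, ESR1 and PGR had group means of 3.64 to 5.09 over the 4 groups, and ERBB2 was not analysed here. Of markers of other cells, the blood marker CD14 was measured, at 5.72 in MDA-MB-231 and 8.52 in HCC70 vehicle (it fell by 0.38 under JQ1 in HCC70, and any part of this in the kinesin results was not tested), and the endothelial markers PECAM1 and VWF, at 4.41 to 5.21 over the 4 groups. A gene is called where its limma p, after Benjamini-Hochberg adjustment across the 14884 genes, is under 0.05.

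In MDA-MB-231, 12 of the 13 mitotic kinesins fell under JQ1, each by more than 1 on the log2 scale, and 0 rose. The median change was -1.69 (lowest -2.67, highest 0.21), beside a median of 0.017 over all genes, of which 17.0% were called lower and 3.55% were called lower by at least 1. Averaged over the 13 genes, the log2 signal was 9.00, 9.00 and 8.85 on the vehicle arrays and 7.40, 7.18 and 7.16 on the JQ1 arrays. In 11 of the 13 genes all 3 JQ1 arrays lay below all 3 vehicle arrays, where 38.0% of all genes had groups that did not overlap in either direction. The exceptions were KIF2B and KIF4B.

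The cytokinesis motors had the largest falls. KIF14, which works with citron kinase and PRC1 in abscission of the daughter cells, read 9.21, 9.06 and 8.93 on the vehicle arrays and 6.52, 6.36 and 6.31 on the JQ1 arrays. The fall was 6.36-fold (-2.67 ± 0.10 SE on the log2 scale, 3 arrays in each group, limma adjusted p = 3.7e-09) and ranked 11 among 14884 genes. KIF20A, or MKLP2, which brings the chromosomal passenger complex to the midzone, went from 9.77, 9.57 and 9.48 to 7.20, 7.09 and 6.86. Its JQ1 arrays all lay more than 2 units below every vehicle array, and it fell 5.90-fold (log2 change -2.56 ± 0.11). KIF23, or MKLP1, the motor subunit of centralspindlin, went from 10.96, 10.98 and 10.85 to 8.67, 8.50 and 8.40 and fell 5.30-fold (log2 change -2.41 ± 0.098). The related KIF20B, also a cytokinesis motor, fell less, by 1.25 ± 0.094.

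Motors that act on chromosomes and on microtubule ends also fell. KIF2C, or MCAK, which depolymerises microtubules at kinetochores to correct wrong attachments, read 9.30, 9.14 and 9.06 in vehicle and 7.10, 6.72 and 6.70 under JQ1, a 5.02-fold fall (log2 change -2.33 ± 0.11). KIF4A, a chromokinesin that shortens the overlap of midzone microtubules with PRC1, read 9.05, 9.14 and 8.94 against 7.17, 6.93 and 7.26, a 3.78-fold fall (log2 change -1.92 ± 0.10). For both genes the groups were separated by more than 1.5 units. KIF22, or Kid, the chromokinesin that pushes chromosome arms away from the poles, fell by 1.46 ± 0.13. KIF18A, which dampens chromosome movement at metaphase, fell by 1.46 ± 0.10, and its relative KIF18B, which acts on astral microtubules, by 1.69 ± 0.099.

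Both motors that push the spindle poles apart were lower. KIF11, or Eg5, the target of several antimitotic compounds, went from 10.82, 10.79 and 10.70 to 9.15, 9.13 and 9.04 and fell 3.16-fold (log2 change -1.66 ± 0.079). KIF15, which can replace KIF11 in holding a bipolar spindle, went from 8.56, 8.53 and 8.34 to 6.85, 6.50 and 6.37 and fell 3.75-fold (log2 change -1.91 ± 0.13). The JQ1 arrays lay below the vehicle arrays in both genes, by the narrower margin in KIF15.

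KIF4B and KIF2B stood apart. KIF4B, a near-copy of KIF4A without introns, read 7.63, 7.39 and 7.04 in vehicle and 7.12, 5.86 and 6.05 under JQ1, so that 1 JQ1 array lay within the vehicle range. It was called (log2 change -1.01 ± 0.27, limma adjusted p = 0.0142), but the call ended without MDA-MB-231 JQ1 replicate 2 (adjusted p = 0.0631), JQ1 replicate 3 (0.0589) or vehicle replicate 1 (0.0606), without the 3 narrow arrays (0.064), and with the line fitted alone (0.0524). Signal of KIF4A transcripts on the KIF4B cluster was not tested. KIF2B, a testis-enriched relative of KIF2C, read 5.35, 6.19 and 6.11 in vehicle and 5.89, 6.02 and 6.36 under JQ1. These groups overlapped, and the change of 0.21 had a 95% interval of -0.21 to 0.63 (limma adjusted p = 0.479).

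**Figure D2:**
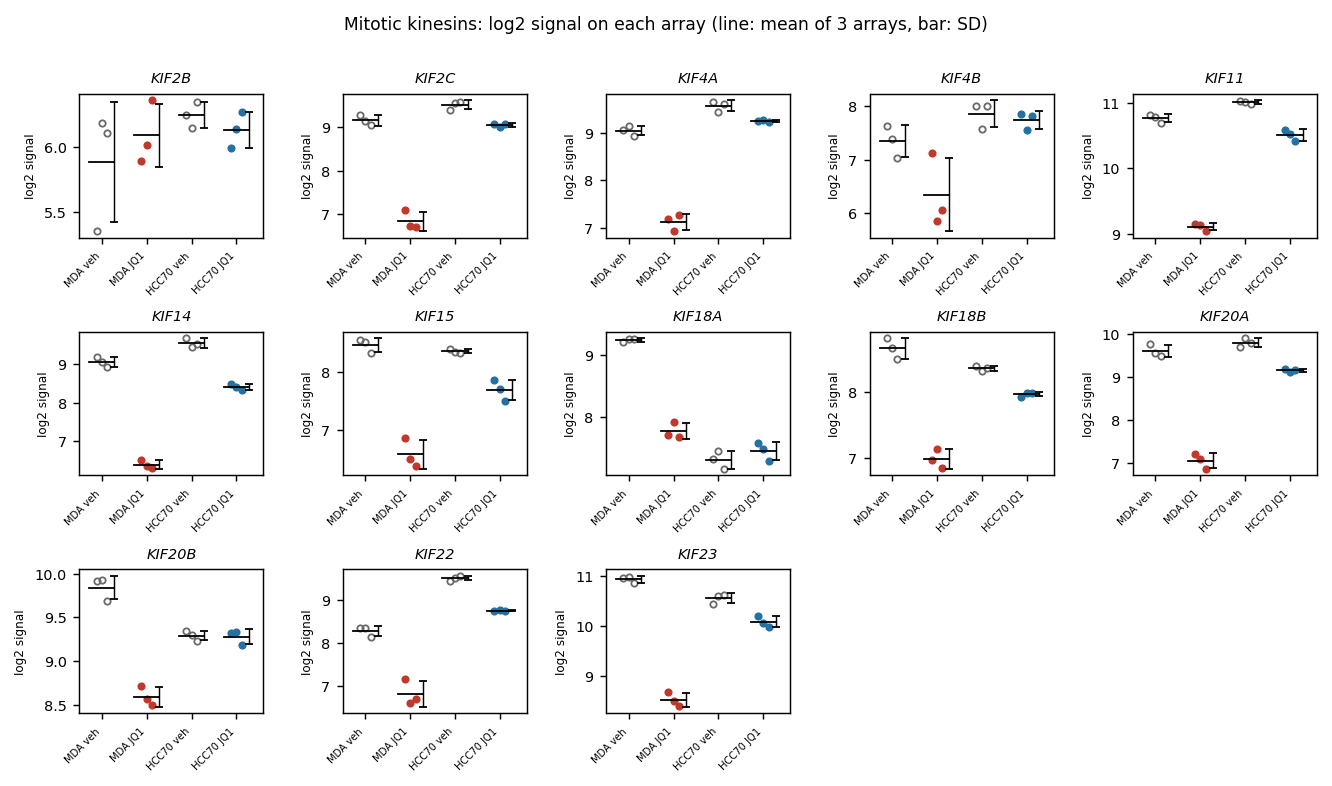
Log2 signal of the 13 mitotic kinesins on each of the 12 arrays (MDA, MDA-MB-231; veh, vehicle; open points vehicle, filled points JQ1; line, mean of 3 arrays; bar, SD; axes differ between genes and do not start at 0). In MDA-MB-231 the JQ1 points lie below the vehicle points in 11 genes, and in HCC70 in 9.

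In HCC70 the mitotic kinesins fell in fewer cases and by less. Here 9 of 13 fell and 0 rose, with a median change of -0.47 (lowest -1.13, highest 0.14), beside a median of 0.0057 over all genes, 12.5% of which were called lower. KIF14 alone fell by at least 1, as did 1.96% of all genes. The mean over the 13 genes was 9.01, 8.98 and 9.01 on the vehicle arrays and 8.62, 8.57 and 8.54 on the JQ1 arrays. The 9 called genes were also the 9 whose JQ1 arrays all lay below the vehicle arrays, where 37.4% of all genes had groups without overlap.

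KIF14 again had the largest fall, from 9.69, 9.45 and 9.54 to 8.51, 8.42 and 8.34, or 2.19-fold (log2 change -1.13 ± 0.10, limma adjusted p = 5.68e-06). KIF22 followed, from 9.46, 9.53 and 9.56 to 8.75, 8.77 and 8.76, a 1.69-fold fall (log2 change -0.76 ± 0.13). Its 3 JQ1 arrays agreed closely and lay well below the vehicle arrays. KIF15 read 8.41, 8.36 and 8.34 in vehicle and 7.87, 7.71 and 7.51 under JQ1, a fall of 0.67 ± 0.13. KIF20A read 9.70, 9.91 and 9.81 against 9.18, 9.12 and 9.17, a fall of 0.65 ± 0.11. In KIF11 the arrays read 11.03, 11.02 and 10.98 against 10.59, 10.53 and 10.41, a fall of 0.50 ± 0.079, the smallest SE among these genes. KIF23, at 10.44, 10.60 and 10.62 against 10.20, 10.06 and 9.98, fell by 0.47 ± 0.098, and KIF2C and KIF18B fell by 0.47 ± 0.11 and 0.40 ± 0.099. In KIF4A the fall was 0.32 ± 0.10 (limma adjusted p = 0.0389). It was not called when any 1 of HCC70 JQ1 replicates 1, 2 and 3 and vehicle replicates 1 and 3 was left out (adjusted p = 0.0835 to 0.137), nor without MDA-MB-231 vehicle replicate 1 (0.0503) or the 3 narrow arrays (0.0673), nor after median centring (-0.25, adjusted p = 0.0967) or with every transcript cluster tested (0.10).

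Among the 4 mitotic kinesins not called in HCC70, KIF18A and KIF20B gave the tightest estimates. KIF18A read 7.32, 7.45 and 7.17 in vehicle and 7.58, 7.49 and 7.30 under JQ1. These arrays overlapped, and the change was 0.14 (95% interval -0.09 to 0.37, limma adjusted p = 0.441). Every HCC70 array, with or without JQ1, lay below the lowest MDA-MB-231 JQ1 array for this gene (7.68). KIF20B read 9.34, 9.30 and 9.23 against 9.32, 9.33 and 9.18, a change of -0.013 (95% interval -0.22 to 0.19). KIF2B (-0.11, interval -0.53 to 0.30) and KIF4B (-0.12, interval -0.71 to 0.47) had wider intervals. KIF2B read 6.25, 6.15 and 6.35 in vehicle and 5.995, 6.14 and 6.27 under JQ1, and KIF4B read 8.01, 7.58 and 8.01 against 7.85, 7.56 and 7.82, so in both genes the groups overlapped.

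The JQ1 effect itself was tested for a difference between the lines (HCC70 minus MDA-MB-231, so that a positive value is a smaller fall in HCC70). It differed for 17 of 39 kinesins, 15 upward and 2 downward, beside 15.0% of all genes called, 9.02% upward and 5.95% downward. Among mitotic kinesins 11 of 13 were called, all upward, with a median of 1.29 beside 0.00 over all genes. The largest were KIF23 at 1.93 ± 0.14 (limma adjusted p = 2.81e-06), KIF20A at 1.91 ± 0.15 and KIF2C at 1.86 ± 0.16. KIF18A, called in MDA-MB-231 alone, had a difference of 1.60 ± 0.15, and KIF20B one of 1.24 ± 0.13. For KIF22 the difference was the smallest of the 11, 0.70 ± 0.18 (adjusted p = 0.0183), and it did not pass without the 3 narrow arrays (0.0573) and over all transcript clusters (0.0517). KIF4B had a difference of 0.89 ± 0.39 that did not pass (adjusted p = 0.159), though it passed without MDA-MB-231 JQ1 replicate 1 (1.28, adjusted p = 0.00491) and with the replicate number as a block (0.0414). Across the 39 kinesins the effects in both lines correlated at r = 0.75, across the 13 mitotic kinesins alone at r = 0.632, and across all 14884 genes at r = 0.422. These are descriptions across genes, which share arrays and are no replicates.

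**Figure D3:**
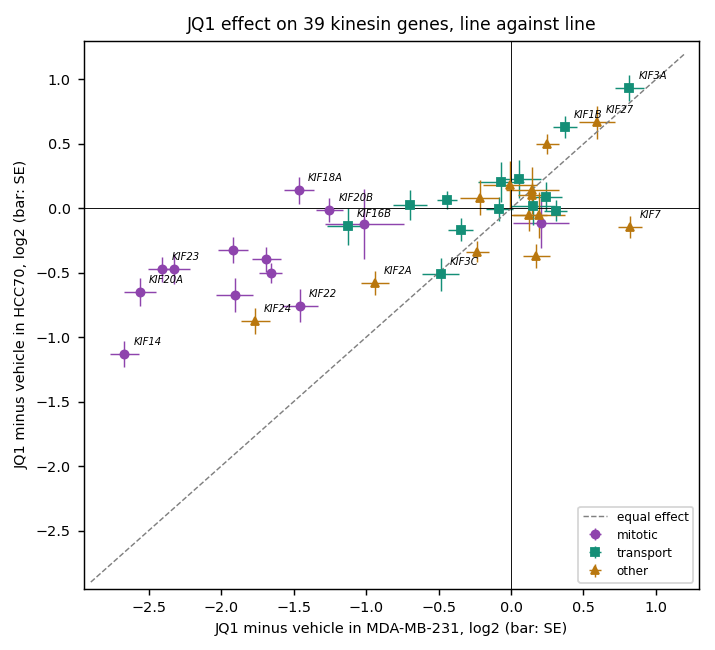
JQ1 minus vehicle on the log2 scale for the 39 kinesins, MDA-MB-231 on the horizontal and HCC70 on the vertical axis (bars, SE; circles mitotic, squares transport, triangles other; dashed line, equal effects). KIF14 lies farthest down at -2.67 and -1.13, KIF3A rose in both lines, and KIF7 rose in MDA-MB-231.

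The transport kinesins went both ways. In MDA-MB-231, 3 of 13 rose and 5 fell, with a median change of -0.069. In HCC70, 2 rose and 1 fell, with a median of 0.027. Of all genes 27.8% were called in MDA-MB-231 (10.8% higher and 17.0% lower) and 21.7% in HCC70 (9.18% higher and 12.5% lower). The HCC70 count of transport kinesins called in either direction is near that line's share. The mean signal over the 13 genes was 7.28, 7.19 and 7.11 on vehicle and 7.08, 7.12 and 7.08 on JQ1 arrays in MDA-MB-231, where the groups overlapped but the JQ1 array was the lower of each same-numbered pair. In HCC70 it was 7.37, 7.29 and 7.31 on vehicle and 7.46, 7.43 and 7.38 on JQ1 arrays, a narrow separation.

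The subunits of kinesin-2, the motor of ciliary and membrane transport, diverged. KIF3A, the subunit common to its heterodimers, read 7.50, 7.43 and 7.28 in MDA-MB-231 vehicle and 8.16, 8.26 and 8.24 under JQ1, and 6.94, 6.95 and 6.88 in HCC70 vehicle and 8.03, 7.89 and 7.64 under JQ1. All JQ1 arrays lay above the vehicle arrays of their line, with rises of 1.76-fold (log2 change 0.82 ± 0.10, limma adjusted p = 5.43e-05) and 1.91-fold (0.93 ± 0.10, adjusted p = 3.11e-05). KIF3C, an alternative partner of KIF3A, fell in both lines, from 7.68, 7.67 and 7.31 to 7.23, 7.06 and 6.90 in MDA-MB-231 (-0.49 ± 0.13, adjusted p = 0.0135) and from 6.58, 6.42 and 6.36 to 6.08, 6.003 and 5.75 in HCC70 (-0.51 ± 0.13, adjusted p = 0.0122). These calls were close to the threshold: the first ended without vehicle replicate 1, vehicle replicate 2 or JQ1 replicate 3 of MDA-MB-231 (adjusted p = 0.0571 to 0.0574), the second without vehicle replicate 1 or JQ1 replicate 3 of HCC70 (0.0564 and 0.0542). KIF3B, the usual partner of KIF3A, read 8.47, 8.43 and 8.40 in MDA-MB-231 vehicle and 8.71, 8.86 and 8.66 under JQ1, a rise of 0.31 ± 0.082 (adjusted p = 0.0134) that was not called without JQ1 replicate 2 (0.25, adjusted p = 0.0627) or with the line fitted alone (0.0572). In HCC70 the KIF3B difference was -0.020 (95% interval -0.20 to 0.16), and the effects did not differ by the test (-0.33 ± 0.12, adjusted p = 0.0824, but 0.0115 to 0.0442 under quantile normalization, a variance trend, array weights or without the dimmer 50% of genes). The kinesin-2 accessory subunit KIFAP3 differed by 0.13 ± 0.077 and 0.14 ± 0.077, which did not pass (adjusted p = 0.241 and 0.236), and the ciliary motor KIF17 passed in neither line.

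Conventional kinesin (kinesin-1) and the kinesin-3 motors were the other transport genes with calls. KIF5B, the widely expressed kinesin-1 heavy chain, read 11.27, 11.26 and 11.31 in MDA-MB-231 vehicle and 10.82, 10.90 and 10.80 under JQ1, a fall of 0.44 ± 0.071 (limma adjusted p = 0.000424). In HCC70 it read 12.38, 12.42 and 12.43 against 12.47, 12.46 and 12.49, a difference of 0.062 that was not called (adjusted p = 0.649) although the arrays did not overlap. The difference of 0.50 ± 0.10 passed (adjusted p = 0.00437) but not after quantile normalization (0.24, adjusted p = 0.106). KIF16B, which moves early endosomes, had the largest fall of this class, from 6.27, 6.01 and 5.60 to 4.79, 4.88 and 4.82 in MDA-MB-231 (2.19-fold, log2 change -1.13 ± 0.14), ending beside the lower quartile of genes (4.81). In HCC70 it read 8.33, 8.10 and 8.26 against 8.23, 8.08 and 7.95, which overlapped (-0.14 ± 0.14), and the difference passed (0.99 ± 0.20, adjusted p = 0.00546). KIF13B, a carrier of membrane vesicles, fell in MDA-MB-231 from 8.15, 8.20 and 7.95 to 7.47, 7.56 and 7.18 (-0.70 ± 0.11). In HCC70 the KIF13B difference was 0.027 (95% interval -0.22 to 0.28), and the difference passed (adjusted p = 0.00916).

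KIF1B, which carries mitochondria and synaptic vesicle precursors, rose in both lines, from 8.92, 8.83 and 8.68 to 9.22, 9.18 and 9.15 in MDA-MB-231 (0.37 ± 0.082) and from 9.34, 9.23 and 9.36 to 9.92, 9.96 and 9.94 in HCC70 (0.63 ± 0.082). The groups did not overlap in either line. A dimmer KIF1B cluster differed by 0.24 and 0.26, neither of which passed (limma adjusted p = 0.217 and 0.215, across all annotated clusters). KIF1C fell in MDA-MB-231 by 0.35 ± 0.088 (adjusted p = 0.00985, and 0.0567 with the line fitted alone), with a difference of -0.17 ± 0.088 in HCC70 (adjusted p = 0.234). The neuronal genes KIF1A, KIF5A and KIF5C, with KIF13A and KIF17, passed in neither line, with changes between -0.08 and 0.24 in MDA-MB-231 and between -0.0043 and 0.23 in HCC70. KIF5A and KIF5C were dim in all 4 groups. With array weights KIF5A was called in HCC70 (0.38 against 0.20, limma adjusted p = 0.0296).

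**Figure D4:**
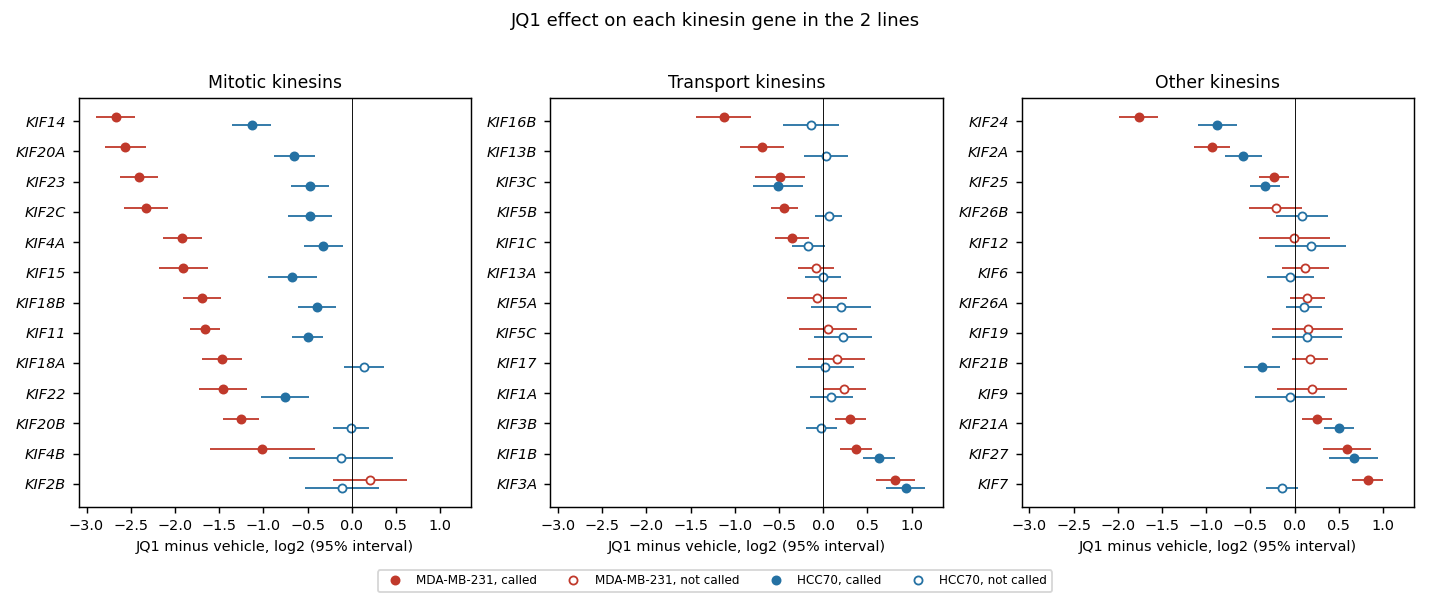
JQ1 minus vehicle (log2, 95% interval from limma) for each mitotic, transport and other kinesin in MDA-MB-231 (red) and HCC70 (blue), filled where called. Of mitotic kinesins 12 fell in MDA-MB-231 and 9 in HCC70, while transport and other kinesins lie on both sides of 0.

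Of the other kinesins 3 rose and 3 fell in MDA-MB-231, and 2 rose and 4 fell in HCC70, with medians of 0.14 and -0.049, where 10.8% of all genes were higher and 17.0% lower in MDA-MB-231, and 9.18% and 12.5% in HCC70. KIF24, which restrains cilium formation at the centriole, fell in both lines, from 6.90, 6.97 and 6.61 to 5.08, 5.02 and 5.08 in MDA-MB-231 (3.40-fold, log2 change -1.77 ± 0.10) and from 8.47, 8.46 and 8.57 to 7.73, 7.58 and 7.55 in HCC70 (1.83-fold, log2 change -0.88 ± 0.10). Its arrays did not overlap in either line, and the effects differed (0.89 ± 0.14, limma adjusted p = 0.000991). KIF2A, a microtubule depolymerase with roles in neurons and at spindle poles, fell from 8.76, 8.63 and 8.57 to 7.75, 7.84 and 7.55 in MDA-MB-231 (-0.94 ± 0.094) and from 8.71, 8.63 and 8.69 to 8.09, 8.18 and 8.02 in HCC70 (-0.58 ± 0.094). The difference of its effects, 0.36 ± 0.13, did not pass (adjusted p = 0.0992, but 0.0303 to 0.0455 with array weights, a variance trend or without the dimmer 50% of genes). With KIF2A and KIF25 counted as mitotic, 14 of 15 mitotic kinesins fell in MDA-MB-231 and 11 of 15 in HCC70.

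KIF25 already lay near the dim limit (4.77 to 4.81) in vehicle and fell below it under JQ1. In MDA-MB-231 it fell by 0.23 ± 0.080 (4.86, 4.92 and 4.97 against 4.67, 4.70 and 4.67, limma adjusted p = 0.0459). In HCC70 it fell by 0.34 ± 0.080 (4.87, 4.96 and 4.93 against 4.47, 4.59 and 4.69, adjusted p = 0.00823). The MDA-MB-231 call ended with the replicate number as a block (adjusted p = 0.0614), without any 1 of the 6 MDA-MB-231 arrays (0.0611 to 0.105), without HCC70 JQ1 replicate 2 or any 1 of the 3 HCC70 vehicle arrays (0.0567 to 0.0675), without the 3 narrow arrays (0.12), after median centring (0.132), and with a variance trend (0.187), array weights (0.0517), all transcript clusters (0.105) or the line fitted alone (0.104). The HCC70 call ended with a variance trend (0.0574).

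KIF7, a regulator of Hedgehog signalling at the tip of the cilium, read 6.36, 6.47 and 6.50 in MDA-MB-231 vehicle and 7.18, 7.24 and 7.40 under JQ1, a 1.77-fold rise (log2 change 0.82 ± 0.083, limma adjusted p = 8.78e-06). In HCC70 it read 6.80, 6.79 and 6.87 against 6.68, 6.70 and 6.64, lower on every JQ1 array but not called (-0.15 ± 0.083, adjusted p = 0.274), and the effects differed (-0.97 ± 0.12, adjusted p = 0.000116). KIF27, a relative of KIF7 linked to motile cilia, rose in both lines, from 7.50, 7.59 and 7.37 to 7.98, 8.16 and 8.09 (0.59 ± 0.13) and from 6.55, 6.49 and 6.21 to 7.27, 7.14 and 6.83 (0.67 ± 0.13). Its other 2 clusters, with means of 3.36 and 3.39 over the 12 arrays, were not called, and with the mean of the 3 clusters KIF27 passed in neither line (adjusted p = 0.126 in MDA-MB-231 and 0.212 in HCC70). KIF21A, a kinesin-4 that slows microtubule growth at the cell cortex, rose by 0.25 ± 0.078 in MDA-MB-231 (6.78, 6.69 and 6.60 against 6.92, 7.00 and 6.91, adjusted p = 0.0289) and by 0.50 ± 0.078 in HCC70 (7.44, 7.44 and 7.40 against 7.89, 7.98 and 7.90). Its MDA-MB-231 call ended without JQ1 replicate 1, JQ1 replicate 2, vehicle replicate 2 or vehicle replicate 3 of that line (adjusted p = 0.0544 to 0.0955), without the 3 narrow arrays (0.0909), over all transcript clusters (0.0729) and with the line fitted alone (0.103). KIF21B fell in HCC70, from 6.32, 6.30 and 6.27 to 5.94, 5.94 and 5.89 (-0.37 ± 0.093, adjusted p = 0.011), and not in MDA-MB-231, where the arrays overlapped (0.17 ± 0.093, adjusted p = 0.198), and its effects differed (-0.55 ± 0.13, adjusted p = 0.0133). KIF6, KIF9, KIF12, KIF19, KIF26A and KIF26B passed in neither line, and KIF6 and KIF9 were dim in all 4 groups.

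**Figure D5:**
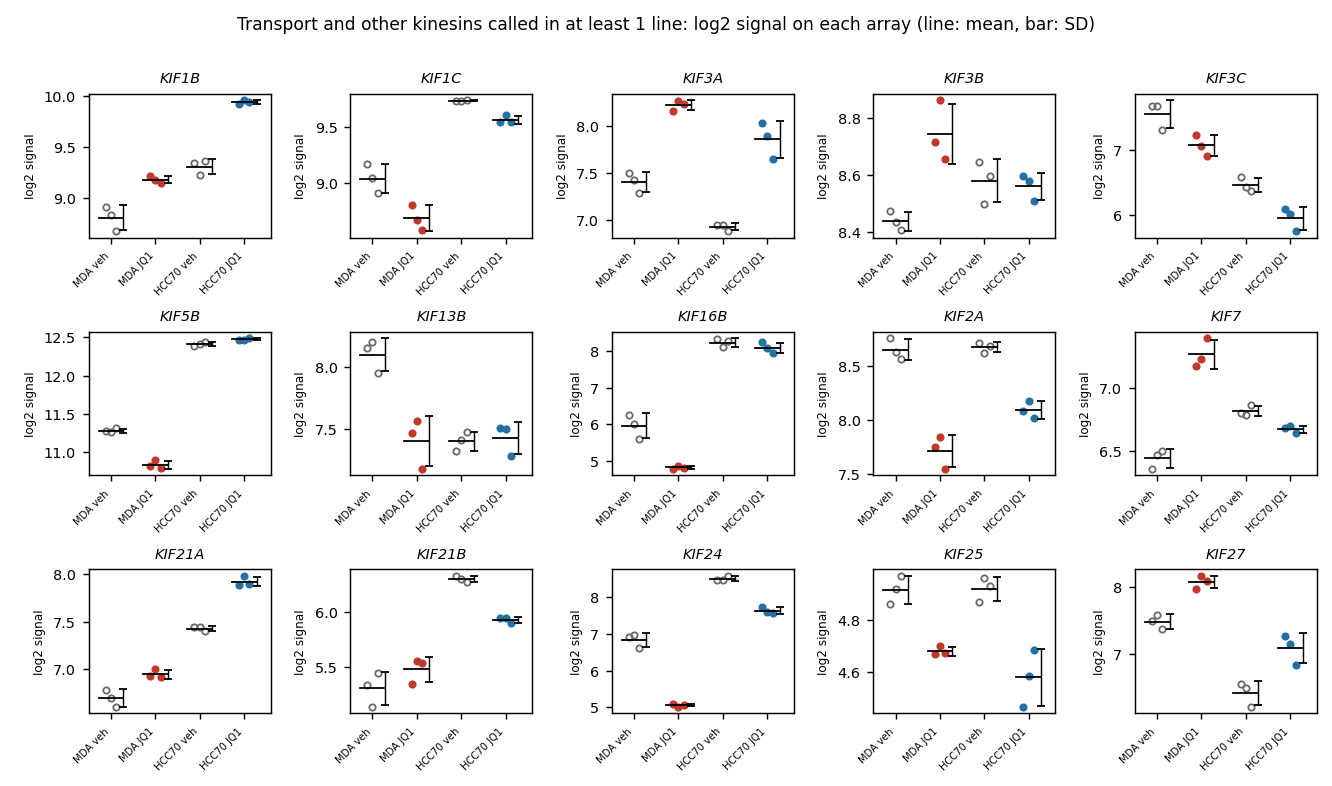
Log2 signal on each array for the 8 transport and 7 other kinesins called in at least 1 line (MDA, MDA-MB-231; veh, vehicle; open points vehicle, filled points JQ1; line, mean of 3 arrays; bar, SD; axes differ between genes and do not start at 0). KIF3A, KIF1B, KIF27 and KIF21A were called higher under JQ1 in both lines, and KIF24, KIF2A, KIF3C and KIF25 lower.

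In vehicle, 22 of 39 kinesins differed between the lines, 13 higher and 9 lower in HCC70, beside 47.0% of all genes, 23.8% higher and 23.2% lower. Of the mitotic kinesins 5 were higher and 4 lower in HCC70. The largest excess in HCC70 was in KIF16B, 4.83-fold (log2 difference 2.27 ± 0.14), then KIF24 at 3.19-fold (1.67 ± 0.10), KIF22 at 2.34-fold (1.23 ± 0.13) and KIF5B at 2.19-fold (1.13 ± 0.071). The largest deficits were in KIF18A, 3.79-fold lower in HCC70 (log2 difference -1.92 ± 0.10), KIF3C (-1.09 ± 0.13), KIF27 (-1.07 ± 0.13) and KIF13A (-0.95 ± 0.092), with the largest adjusted p among these 8 genes at 1.12e-05 (limma). For KIF18A the vehicle arrays read 9.20, 9.26 and 9.26 in MDA-MB-231 and 7.32, 7.45 and 7.17 in HCC70, far apart. For KIF13A, which carries vesicles and endosomes, they read 9.18, 9.13 and 9.12 against 8.23, 8.14 and 8.19, also without overlap. The mean over the mitotic kinesins differed little, 8.85 to 9.00 in MDA-MB-231 against 8.98 to 9.01 in HCC70.

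Genes that work with kinesins were taken from lists drawn up by role. Of the kinesins named otherwise, the spindle motor KIFC1 fell in both lines (-1.97 ± 0.092 and -0.37 ± 0.092), KIFC3, a minus-end motor of cell junctions, fell in MDA-MB-231 (-1.20 ± 0.12, and -0.18 ± 0.12 in HCC70, which did not pass), KIFC2 rose in MDA-MB-231 (0.41 ± 0.12, and 0.25 ± 0.12 in HCC70, which did not pass) and STARD9 passed in neither (0.085 ± 0.12 and -0.026 ± 0.12). CENPE was not analysed here. Of 14 partners of mitotic kinesins 12 fell and 1 rose in MDA-MB-231, and 9 fell and 1 rose in HCC70, with medians of -1.89 and -0.47, beside 17.0% of all genes lower and 10.8% higher in MDA-MB-231 and 12.5% and 9.18% in HCC70. PRC1, which bundles the midzone and binds KIF4A, fell by 2.31 ± 0.094 and 1.11 ± 0.094, and the kinase NEK9, upstream of KIF11 at the poles, rose by 0.83 ± 0.092 and 0.82 ± 0.092. PLK1, whose docking site KIF20A provides, fell by 2.37 ± 0.099 and 0.85 ± 0.099, and the cytokinesis factor ECT2 by 1.87 ± 0.081 and 0.74 ± 0.081.

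Adaptors in MDA-MB-231 and ciliary transport genes in both lines had calls in both directions. Dynactin subunits were not called higher in either line. Of 12 light chains and cargo adaptors 4 rose and 2 fell in MDA-MB-231, beside 10.8% of all genes higher and 17.0% lower. In HCC70 3 rose and 0 fell, beside 9.18% and 12.5%. Counted in either direction, 27.8% and 21.7% of all genes were called in the 2 lines, and the HCC70 count is near that share. The light chain KLC1 rose by 0.41 ± 0.084 in MDA-MB-231 and 0.56 ± 0.084 in HCC70, the scaffold SPAG9 by 0.42 ± 0.072 and 0.69 ± 0.072, and the cargo receptor CLSTN1 by 0.62 ± 0.079 and 0.49 ± 0.079. The scaffold MAPK8IP3 rose by 0.87 ± 0.10 in MDA-MB-231, with a difference of 0.29 ± 0.10 in HCC70 that did not pass. In the same line KIFBP, an inhibitor of several kinesins, fell by 0.72 ± 0.095 and KLC2 by 0.37 ± 0.11, with differences of 0.24 ± 0.095 and -0.032 ± 0.11 in HCC70 that did not pass. Of 10 genes of dynactin and dynein cofactors (6 dynactin subunits, BICD1, BICD2, NDE1 and NDEL1) 4 fell and 0 rose in MDA-MB-231, beside 17.0% of all genes lower and 10.8% higher, and 1 fell and 1 rose in HCC70, beside 12.5% and 9.18%. In HCC70 the count of these 10 genes called in either direction is near the 21.7% of all genes called. Dynein subunits were not analysed here. Among these NDE1, a dynein cofactor, fell by 1.14 ± 0.11 and 0.58 ± 0.11. The dynactin subunit DCTN2 fell by 0.41 ± 0.095 in MDA-MB-231, with a difference of -0.19 ± 0.095 in HCC70 that did not pass. NDEL1 rose by 0.29 ± 0.085 in HCC70, with a difference of 0.14 ± 0.085 in MDA-MB-231 that did not pass. Of 18 intraflagellar transport genes, whose products kinesin-2 moves along the cilium, 6 rose and 2 fell in MDA-MB-231 and 4 rose and 6 fell in HCC70, beside the same shares of all genes. In these genes both lines shared some calls: WDR19 rose by 0.77 ± 0.11 and 0.84 ± 0.11, IFT88 rose by 0.64 ± 0.12 and 0.48 ± 0.12, WDR35 fell by 0.43 ± 0.14 and 1.06 ± 0.14, and IFT74 fell by 0.78 ± 0.098 and 0.67 ± 0.098. IFT57 rose by 0.56 ± 0.086 in MDA-MB-231 and fell by 0.34 ± 0.086 in HCC70, and its effects differed (-0.90 ± 0.12, limma adjusted p = 0.000287). CLUAP1 fell by 1.14 ± 0.11 in HCC70, with a difference of -0.074 ± 0.11 in MDA-MB-231 that did not pass.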

How the data were processed

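The authors deposited log2 signals of transcript clusters on 12 Human Gene 2.0 ST arrays, 150 ng of RNA each, and RMA, oligo and limma are named, without versions, in the submitters' processing notes. The sources used here do not give a genome build, so coordinates are those of the RefSeq promoter table. Of 53617 clusters, 16098 had 1 gene symbol and 0 had several, which gave 14884 genes, and 37519 had none. Columns of other series numbered 0.

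limma 3.58.1 (R 4.3.3) fitted the 4 group means over the 12 arrays together, with two-sided moderated tests from eBayes and Benjamini-Hochberg adjustment over all genes, and was checked on simulated data. An SE is that of the limma coefficient. Members, classes, lists and alternatives were chosen with earlier results of these data known. Every kinesin was accounted for, with array values for the 6 largest mitotic changes per line, uncalled mitotic genes and up to 4 calls per direction in the other classes, and in other lists up to 2 genes per direction by p. The window of 20 to 40 bases for motif pairs was set after motif positions were seen. The tubulin list had 0 genes among the 14884 that carry a symbol in the annotation used, so tubulins were not analysed here.

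As for pairing, deviations of vehicle and JQ1 arrays of the same number from their group means correlated across genes at 0.155, 0.121 and 0.362 in MDA-MB-231, where the numbers were taken to pair samples, and at -0.0588, 0.0147 and 0.0702 in HCC70, where they were not. Arrays of different numbers correlated at -0.25 to 0.121 in MDA-MB-231 and at -0.142 to 0.135 in HCC70. The value of 0.362 joins 2 of the 3 narrow arrays. No label states what a number marks, so pairing is not established. The main fit, which gave the p-values unless stated otherwise, left the numbers out. The number of arrays limits the precision. Alternatives are listed with their effects in the closing section.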

Additional observations from a re-analysis of the deposited data

Results flagged for a closer look

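For 17 kinesins the JQ1 effect differed between the lines by limma's test of that difference (HCC70 minus MDA-MB-231, log2), which is what marked them here. Of the mitotic kinesins the values were 1.93 for KIF23, 1.91 for KIF20A, 1.86 for KIF2C, 1.60 for KIF18A, 1.60 for KIF4A, 1.54 for KIF14, 1.29 for KIF18B, 1.24 for KIF20B, 1.23 for KIF15, 1.16 for KIF11 and 0.70 for KIF22, all positive because the fall was larger in MDA-MB-231. Of the transport kinesins they were 0.99 for KIF16B, 0.72 for KIF13B and 0.50 for KIF5B, which fell in MDA-MB-231 and were not called in HCC70. Of the others they were 0.89 for KIF24, which fell in both lines, -0.97 for KIF7, which rose in MDA-MB-231, and -0.55 for KIF21B, which fell in HCC70. Groups of 3 arrays are too small for a test of single outlying arrays.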

How the results depend on the processing

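With a log2 change of at least 1 also required, 12 mitotic kinesins were called in MDA-MB-231 as before, but 1 in place of 9 in HCC70, 1 in place of 8 transport and 1 in place of 6 other kinesins in MDA-MB-231, 0 in place of 3 transport and 0 in place of 6 other kinesins in HCC70, 10 in place of 17 differences of effects and 7 in place of 22 between the vehicle-treated lines. Under every other setting these counts stayed within 1.5 times, and 0 calls changed direction. Leaving out 1 array at a time gave 11 to 12 mitotic kinesins in MDA-MB-231 and 8 to 9 in HCC70, 7 to 8 and 2 to 3 transport kinesins, 4 to 6 and 6 other kinesins, 17 to 18 differences and 19 to 23 between the lines. The other settings were the replicate block, separate fits per line, robust moderation with a variance trend, leaving out the dimmer 50% of genes, averaging clusters within a gene, testing every cluster, quantile normalization, median centring, array weights, KIF2A and KIF25 counted as mitotic, and leaving out the 3 narrow arrays. With the replicate number as a block the counts were 12 and 8 mitotic, 8 and 3 transport and 5 and 6 other kinesins in MDA-MB-231 and HCC70, 18 differences and 22 between the lines: KIF4B gained a called difference (adjusted p = 0.0414) and KIF4A in HCC70, where the numbers were not taken to pair samples, lost its call (0.0854), as did KIF25 in MDA-MB-231, and no other kinesin call changed. Between the vehicle-treated lines KIF2C, KIF11 and KIF18B lost their calls without single vehicle arrays (limma adjusted p = 0.0535 to 0.104), KIF2C also with quantile normalization (0.0554) and without the 3 narrow arrays (0.0718), and KIF11 and KIF18B with every cluster tested (0.0503 and 0.0507), while KIF4B gained one without MDA-MB-231 JQ1 replicate 1 (0.0216). The cause of these changes was not tested.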
